A study of Homo sapiens with 6 samples.

Results

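The genes of the 3 D-type cyclins (CCND1, CCND2 and CCND3) and of 6 cyclin-dependent kinase (CDK) inhibitors (CDKN1A, CDKN1B, CDKN2A, CDKN2B, CDKN2C and CDKN2D) were examined for regions of KDM3B and of dimethylated histone H3 lysine 9 (H3K9me2) in HCT116 cells. A region belonged to a gene if it overlapped, by at least 1 base, the 5 kb on either side of any annotated transcription start site (TSS) of that gene or the body of the gene in hg19. By this rule the 9 genes, of 20176 protein-coding genes examined, held 16 of the 17638 KDM3B regions of HCT116/Scrsh cells, 8 of the 8046 KDM3B regions of HCT116/ABsh-1 cells, 1 of the 11645 H3K9me2 regions of HCT116/Scrsh cells and 21 of the 88855 H3K9me2 regions of HCT116/ABsh-1 cells.

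HCT116 is a colorectal cancer cell line established from a human tumour, with an activating mutation of β-catenin. HCT116/Scrsh cells carried a scramble shRNA, and HCT116/ABsh-1 cells an shRNA against KDM3A and KDM3B at once. The sample labels describe an siRNA treatment of all libraries, whereas the methods of the study describe stable shRNA, and the labels name the populations only as Con and KD. The series held 6 ChIP-seq libraries, 1 each of KDM3B, H3K9me2 and input DNA from each population, and the 2 inputs entered only through the authors' calling. With 1 library per antibody and population there was no replicate error to compare with, so no difference below has a test. Called regions were multiples of 100-bp windows, and each carried a whole-number score, which is not explained in the files and rose with region width within every list (rank correlation across regions 0.765 to 0.937). The score is read only within its list, mostly by its percentile, the share of regions of the same list with a lower score. Read numbers were not in the lists, so the depth is unknown, and a gene with no region is one where none was detectable at that depth.

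D-type cyclins bind CDK4 and CDK6 in the G1 phase, and the active kinases phosphorylate the retinoblastoma protein, which frees E2F factors to switch on genes for DNA replication. The INK4 inhibitors, encoded by CDKN2A (p16), CDKN2B (p15), CDKN2C (p18) and CDKN2D (p19), bind CDK4 and CDK6 and block them. The CIP/KIP inhibitors, encoded by CDKN1A (p21) and CDKN1B (p27), bind a wider range of cyclin-CDK complexes. CDKN2A also encodes ARF from an upstream start, a protein that protects p53 from degradation. KDM3B removes methyl groups from H3K9me2, a mark associated with gene silencing. CCND1 is a well-known target of Wnt/β-catenin signalling in colorectal cancer cells.

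At 5 of the 9 genes, a KDM3B region of HCT116/Scrsh cells and one of HCT116/ABsh-1 cells shared bases. The stretches of CCND1, CCND2, CDKN1B and CDKN2B are shown because KDM3B was called there in both libraries. Each is the plus strand of hg19 from 5′ to 3′ with CpG dinucleotides in capitals. The CDKN2B stretch is the part outside annotated UTRs.
CCND1, chr11:69458301-69458400: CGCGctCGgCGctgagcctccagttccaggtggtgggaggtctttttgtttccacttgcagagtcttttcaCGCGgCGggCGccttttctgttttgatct
CCND2, chr12:4386201-4386300: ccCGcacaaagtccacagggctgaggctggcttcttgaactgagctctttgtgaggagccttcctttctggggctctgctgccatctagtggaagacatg
CDKN1B, chr12:12857701-12857800: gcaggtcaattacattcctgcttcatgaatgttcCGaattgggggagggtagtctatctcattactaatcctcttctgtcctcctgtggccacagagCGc
CDKN2B, chr9:22009305-22009400: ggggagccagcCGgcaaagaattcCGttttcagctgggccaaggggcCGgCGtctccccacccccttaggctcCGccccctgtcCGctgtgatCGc

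These 4 stretches differed in the number of CpGs. CDKN2B, whose stretch lies immediately upstream of the TSS, had 7 CpGs in 96 bases and a GC content of 68.8%, and CCND1 had 8 CpGs in 100 bases and 57.0%. CCND2 had 1 CpG in 100 bases at 56.0% GC, and CDKN1B 2 CpGs in 100 bases at 49.0% GC.

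At CDKN1A, CDKN2C and CDKN2D, KDM3B was called in only 1 of the 2 libraries. The region nearest to a start of each gene is shown in the same way, from HCT116/Scrsh cells for CDKN1A and CDKN2C and from HCT116/ABsh-1 cells for CDKN2D.
CDKN1A, chr6:36646201-36646300: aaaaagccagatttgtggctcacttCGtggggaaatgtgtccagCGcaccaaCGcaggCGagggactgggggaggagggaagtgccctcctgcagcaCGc
CDKN2C, chr1:51426101-51426200: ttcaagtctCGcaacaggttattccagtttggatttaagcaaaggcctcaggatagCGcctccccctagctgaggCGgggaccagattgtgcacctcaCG
CDKN2D, chr19:10679801-10679900: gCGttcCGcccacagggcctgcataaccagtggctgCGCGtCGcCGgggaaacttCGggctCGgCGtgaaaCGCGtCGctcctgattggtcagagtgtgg

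H3K9me2 regions of at least 300 bp at these genes were called in HCT116/ABsh-1 cells at CCND2 and CDKN2D. They are shown with their UTR bases left out. The CCND2 stretch begins with the start codon of the gene, and its first 195 of 294 bases are coding and the rest intron 1. All 264 bases of the CDKN2D stretch are coding, and CDKN2D lies on the minus strand, so its stretch reads against the direction of transcription.
CCND2, chr12:4383207-4383500: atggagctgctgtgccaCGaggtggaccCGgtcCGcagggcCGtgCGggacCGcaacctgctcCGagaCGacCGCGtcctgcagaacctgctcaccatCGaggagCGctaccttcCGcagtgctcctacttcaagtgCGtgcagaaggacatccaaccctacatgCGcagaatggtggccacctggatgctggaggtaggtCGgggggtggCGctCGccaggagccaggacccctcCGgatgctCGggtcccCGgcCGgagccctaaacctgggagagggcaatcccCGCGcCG
CDKN2D, chr19:10677737-10678000: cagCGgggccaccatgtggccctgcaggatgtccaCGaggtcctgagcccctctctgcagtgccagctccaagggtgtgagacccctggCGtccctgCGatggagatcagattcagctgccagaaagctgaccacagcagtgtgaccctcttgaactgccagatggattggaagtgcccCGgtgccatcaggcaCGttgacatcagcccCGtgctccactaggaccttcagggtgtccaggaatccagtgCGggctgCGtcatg

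KDM3B regions of HCT116/Scrsh cells were called at 8 of the 9 genes, all except CDKN2D, whereas 43.5% of all protein-coding genes had one by the same rule. In HCT116/ABsh-1 cells 7 of the 9 had a KDM3B region, all except CDKN1A and CDKN2C, against 25.0% of all protein-coding genes. A region was called in both populations at 6 of the 9 (all genes, 20.5%), and in HCT116/Scrsh cells but not in HCT116/ABsh-1 cells at 2 of the 9, which was close to the 22.9% of all genes. H3K9me2 was called at 1 of the 9 genes in HCT116/Scrsh cells, CDKN2A (all genes, 17.8%), and at 7 of the 9 in HCT116/ABsh-1 cells, all except CDKN1B and CDKN2C (all genes, 56.4%). Of these, 6 had H3K9me2 only in the HCT116/ABsh-1 list, whereas 40.8% of all genes did. Single libraries were set side by side here, and whether these shares differ from the background beyond chance was not tested.

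**Figure D1:**
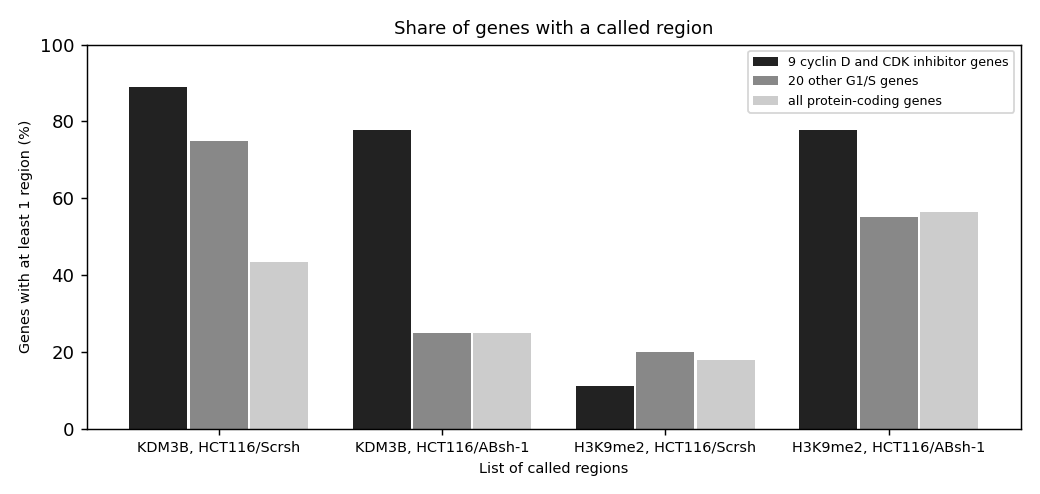
Share of genes (%) with at least 1 called region in each of the 4 lists, for the 9 cyclin D and CDK inhibitor genes, the 20 other G1/S genes and all 20176 protein-coding genes. Each bar rests on 1 library. For HCT116/Scrsh cells KDM3B was listed at 8 of the 9 genes and H3K9me2 at 1, and for HCT116/ABsh-1 cells each was listed at 7.

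These counts depended on the annotation and on how many regions each list held. With the canonical transcript of each gene only, chosen after the data were seen, KDM3B was called at 4 of the 9 genes in each population, against 40.4% of all genes in HCT116/Scrsh cells and 22.4% in HCT116/ABsh-1 cells, so that the share for HCT116/Scrsh cells was close to the background. When the longer list of each antibody was cut by score to about the length of the shorter, KDM3B was called at 5 of the 9 genes in HCT116/Scrsh cells (CCND1, CCND2, CCND3, CDKN1B and CDKN2B) and at 7 in HCT116/ABsh-1 cells, so the order of the populations turned, while all protein-coding genes stood at 25.0% in both. After the same cut none of the 9 genes had H3K9me2 in HCT116/ABsh-1 cells, where 20.1% of all genes did, and CDKN2A still had its region in HCT116/Scrsh cells. The highest score among the 21 H3K9me2 regions at these genes in HCT116/ABsh-1 cells was 65, at the 74.5 percentile of its list.

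The windows of the 9 genes had a median length of 19.5 kb against 32.7 kb over all protein-coding genes, and ranged from 10.1 kb at CDKN2D to 122 kb at CCND3. Per 100 kb of window, the 9 genes held 5.05 KDM3B regions in HCT116/Scrsh cells and 2.53 in HCT116/ABsh-1 cells, against 0.945 and 0.430 over all protein-coding windows. For H3K9me2 the values were 0.316 and 6.63 per 100 kb, against 0.449 and 4.88. These pooled densities depend on window length and do not show an excess at the 9 genes. Short windows lie mostly near a TSS, and 45.3% of KDM3B regions of HCT116/Scrsh cells at protein-coding genes were within 1 kb of one. CCND1 alone held 6 of the 16 KDM3B regions of HCT116/Scrsh cells, in a window of 18.3 kb. In bases the H3K9me2 coverage was small. The 9 genes had on average 356 bp per gene covered in HCT116/ABsh-1 cells, where all genes had 1159 bp, while the medians were 200 and 100 bp. At these genes 13 of the 21 H3K9me2 regions of HCT116/ABsh-1 cells were single 100-bp windows, as were 41.3% of the whole list, and the widest was 400 bp where the list reached 7100 bp.

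**Figure D2:**
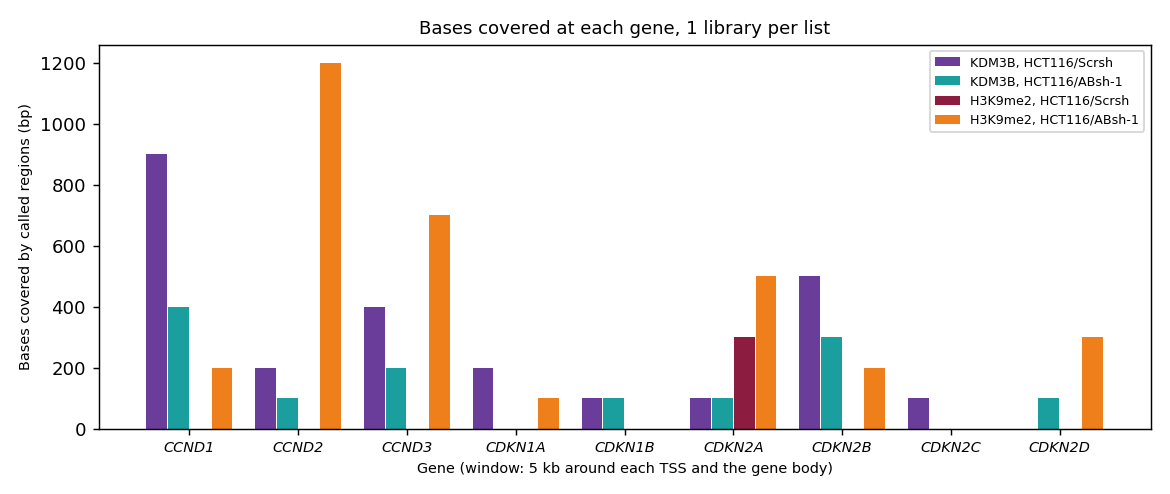
Bases (bp) covered by called regions at each of the 9 genes in each list, within 5 kb of a TSS or in the gene body, from 1 library per list. CCND1 had the most bases under KDM3B in HCT116/Scrsh cells (900 bp) and CCND2 the most under H3K9me2 in HCT116/ABsh-1 cells (1200 bp).

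The D-type cyclin genes held 9 of the 16 KDM3B regions of HCT116/Scrsh cells, 4 of the 8 of HCT116/ABsh-1 cells and 15 of the 21 H3K9me2 regions of HCT116/ABsh-1 cells, and no H3K9me2 region of HCT116/Scrsh cells. The windows of CCND1, CCND2 and CCND3 measured 18.3, 40.6 and 122 kb, and those of the CDK inhibitor genes ranged from 10.1 to 42.4 kb. These counts were not scaled to window length and do not show a concentration of regions at the cyclin genes. CCND1 (ENSG00000110092.4, chromosome 11, 69455924 to 69469242, plus strand) had 900 bp covered by KDM3B in HCT116/Scrsh cells, 400 bp in HCT116/ABsh-1 cells, 0 bp by H3K9me2 in HCT116/Scrsh cells and 200 bp in HCT116/ABsh-1 cells. KDM3B was called on more bases in HCT116/Scrsh cells and H3K9me2 only in HCT116/ABsh-1 cells. The whole lists differed in the same directions. KDM3B regions covered 3.21 Mb in HCT116/Scrsh cells and 1.31 Mb in HCT116/ABsh-1 cells, and H3K9me2 regions 1.69 and 27.6 Mb. The 6 KDM3B regions at CCND1 in HCT116/Scrsh cells were spread from 2674 bp upstream to 11926 bp downstream of the canonical TSS, counted to the centre of each region. The widest, of 300 bp, had a score of 34 at the 63.4 percentile, but above only 7.17% of the 300-bp regions of the list. It was centred in intron 3 and overlapped coding sequence of an annotated transcript. The region over exon 1, a single window in the 5′ UTR, had a score of 11 at the 10.1 percentile. The last region, at 69467801 to 69467900 in the 3′ UTR of exon 5, also lies in LTO1, which overlaps CCND1 there, and had a score of 9 at the 3.59 percentile.

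The stretch of CCND1 intron 2 shown above was called in both populations. It was 100 bp wide with a score of 20 in HCT116/Scrsh cells (percentile 40.8) and 200 bp wide with a score of 56 in HCT116/ABsh-1 cells (percentile 90.4). The region of HCT116/ABsh-1 cells was the wider, and percentiles of lists of different length do not show a change in binding. The other KDM3B region of HCT116/ABsh-1 cells lay 4424 bp upstream of the TSS, where HCT116/Scrsh cells had none, with a score of 23 (percentile 62.6). The H3K9me2 regions of HCT116/ABsh-1 cells, in introns 3 and 4, were single windows with scores of 16 (percentile 23.7) and 11 (percentile 4.11). They were 1200 bp and 4100 bp away from the nearest KDM3B region of HCT116/Scrsh cells.

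CCND2 (ENSG00000118971.9, chromosome 12, 4378937 to 4414519, plus strand) encodes cyclin D2. KDM3B covered 200 bp in HCT116/Scrsh cells and 100 bp in HCT116/ABsh-1 cells, and H3K9me2 covered 0 and 1200 bp. A single KDM3B site in intron 2 was called in both libraries, at 4386201 to 4386400 with a score of 69 (percentile 87.7) in HCT116/Scrsh cells and at 4386201 to 4386300 with a score of 12 (percentile 25.8) in HCT116/ABsh-1 cells. The region was wider in HCT116/Scrsh cells. The nearest annotated TSS to it belongs to CCND2-AS1, an antisense RNA gene, at 882 bp from the centre of the HCT116/Scrsh region, and ChIP-seq of double-stranded DNA does not tell overlapping genes apart.

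CCND2 had the most H3K9me2 regions of the 9 genes in HCT116/ABsh-1 cells, with 8 over its 40.6-kb window, and 4 of them lay more than 5 kb from any TSS of the gene. The widest of all at these genes was the 400-bp region over coding exon 1 shown above, at 4383101 to 4383500, with a score of 65 (percentile 74.5). That score was above 43.7% of the 400-bp regions of the list. Next came a 200-bp region in intron 3 at 4390701 to 4390900 with a score of 54 (percentile 68.6), which was above 95.4% of the 200-bp regions of the list. The other 6 were single windows with scores from 12 to 15, between the 7.37 and 19.6 percentiles. Thus 2 of the 8 were above the median score of the list.

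CCND3 (ENSG00000112576.13, chromosome 6, 41902672 to 42018095, minus strand) encodes cyclin D3 and has 18 annotated start sites over its 122-kb window, so regions far upstream of its canonical TSS lie within longer transcripts. KDM3B covered 400 bp in HCT116/Scrsh cells and 200 bp in HCT116/ABsh-1 cells, and H3K9me2 covered 0 and 700 bp. Of its 2 KDM3B regions of HCT116/Scrsh cells, 1 overlapped the region of HCT116/ABsh-1 cells. The other, at 41934901 to 41935000, had a score of 13 (percentile 17.5) and was 25404 bp from the nearest start of the gene.

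Of the 5 H3K9me2 regions of HCT116/ABsh-1 cells at CCND3, only the region at 41908001 to 41908200 lay near the canonical TSS, 1446 bp downstream. It had a score of 46 (percentile 63.1), was centred in intron 2 and overlapped coding sequence of an annotated transcript. The other 4 lay in the long upstream transcripts. That at 41998301 to 41998500 had a score of 44 (percentile 61.5), and the remaining 3 were single windows with scores of 11 to 14. Of those 3, the region at 42017201 to 42017300, with the score of 14, was centred 544 bp from an upstream start of CCND3. With canonical transcripts only, CCND3 had no KDM3B region in either population and still had H3K9me2 in HCT116/ABsh-1 cells.

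**Figure D3:**
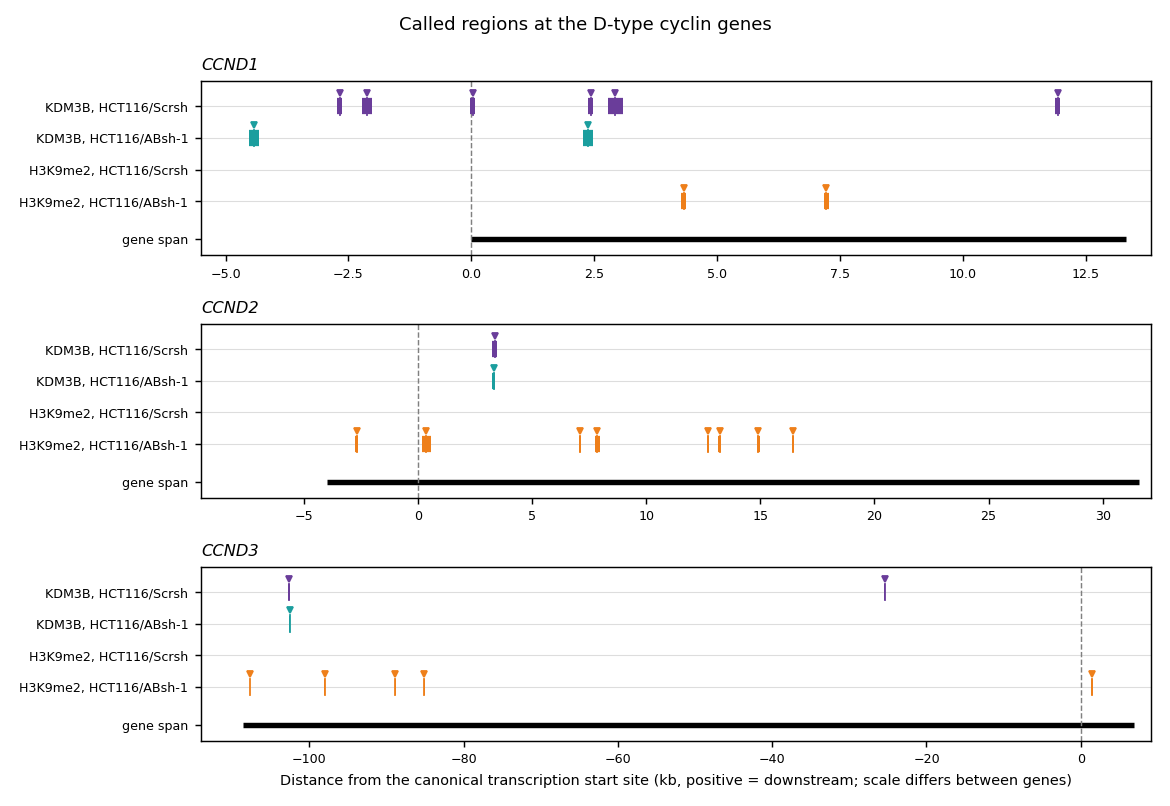
Regions of the 4 lists at CCND1, CCND2 and CCND3 by distance (kb) from the canonical TSS, dashed, with the annotated gene span in black. Boxes are regions at their true width with a minimum line width, each marked by a triangle. Every cyclin gene has a KDM3B position called in both populations, no H3K9me2 region in HCT116/Scrsh cells, and 2, 8 and 5 H3K9me2 regions in HCT116/ABsh-1 cells.

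The CIP/KIP genes, with windows of 15.9 kb (CDKN1A) and 42.4 kb (CDKN1B), held 3 KDM3B regions in HCT116/Scrsh cells. In HCT116/ABsh-1 cells they held 1 of KDM3B and 1 of H3K9me2, and all 5 regions were single windows. These counts were not scaled to window length. CDKN1A (ENSG00000124762.14, chromosome 6, 36644237 to 36655114, plus strand), a main transcriptional target of p53, had 200 bp covered by KDM3B in HCT116/Scrsh cells and 0 bp in HCT116/ABsh-1 cells, and 0 bp and 100 bp by H3K9me2. Its 2 KDM3B regions were low in the list. That at 36646201 to 36646300, centred 241 bp upstream of the canonical TSS, had a score of 11 (percentile 10.1) and overlaps DINOL, a non-coding gene that starts 86 bp from its centre. That in intron 1, 4059 bp downstream, had a score of 12 (percentile 13.9). The nearest KDM3B region of HCT116/ABsh-1 cells to the promoter region was 15400 bp away. H3K9me2 was called over coding exon 2, at 36652001 to 36652100, with a score of 16 (percentile 23.7), 1400 bp from the intron 1 region of KDM3B.

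CDKN1B (ENSG00000111276.12, chromosome 12, 12838432 to 12875303, plus strand) had 1 KDM3B region, at the same window, 12857701 to 12857800, in both populations and no H3K9me2 region in either. KDM3B covered 100 bp in both. The scores were 37 in HCT116/Scrsh cells (percentile 66.5) and 35 in HCT116/ABsh-1 cells (percentile 77.1). Among single-window regions these were high, above 98.8% and 99.4% of their lists, respectively. The site lies at −12552 bp from the canonical TSS and 7596 bp from the nearest start of any CDKN1B transcript, and belongs to the gene only through a long transcript that is not annotated as protein-coding. The nearest H3K9me2 region of HCT116/ABsh-1 cells was 82400 bp away, the largest such gap at the 9 genes.

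The INK4 genes held 4 KDM3B regions in HCT116/Scrsh cells and 3 in HCT116/ABsh-1 cells, and 1 and 5 H3K9me2 regions. CDKN2A (ENSG00000147889.18, chromosome 9, 21967751 to 21995300, minus strand) was the only one of the 9 genes with regions in all 4 lists. KDM3B covered 100 bp in each population and H3K9me2 covered 300 bp in HCT116/Scrsh cells and 500 bp in HCT116/ABsh-1 cells. The KDM3B windows adjoined each other without overlap, at 21995301 to 21995400 with a score of 10 (percentile 6.64) in HCT116/Scrsh cells and at 21995401 to 21995500 with a score of 6 (percentile 0.485) in HCT116/ABsh-1 cells. They lay just upstream of the outermost start of the gene, centred at −50 and −150 bp from it, in a stretch shared with CDKN2B-AS1, an antisense RNA gene.

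H3K9me2 at CDKN2A differed in position between the populations. The region of HCT116/Scrsh cells, at 21989701 to 21990000, had a score of 28 (percentile 85.2), but this was above only 6.28% of the 300-bp regions of its list. It lay 4541 bp downstream of the nearest start, between the outermost start and the canonical TSS. The 3 regions of HCT116/ABsh-1 cells lay at the other end of the gene. They were at 21970701 to 21970900 in intron 2 with a score of 31 (percentile 49.2), at 21968401 to 21968500 in intron 2 with a score of 20 (percentile 35.5), and at 21966101 to 21966300 beyond the end of the gene with a score of 25 (percentile 42.9). The first of these was centred in intron 2 and overlapped coding sequence of an annotated transcript. None of the 3 overlapped the HCT116/Scrsh region, and the nearest H3K9me2 region of HCT116/ABsh-1 cells to that region was 15900 bp away.

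CDKN2B (ENSG00000147883.12, chromosome 9, 22002902 to 22009304, minus strand) is the neighbour of CDKN2A and lies within CDKN2B-AS1. KDM3B covered 500 bp in HCT116/Scrsh cells and 300 bp in HCT116/ABsh-1 cells, and H3K9me2 covered 0 and 200 bp. Both KDM3B lists had a region over the TSS, at 22009201 to 22009400 with a score of 34 (percentile 63.4) in HCT116/Scrsh cells and at 22009101 to 22009400 with a score of 25 (percentile 66.0) in HCT116/ABsh-1 cells. Among regions of the same width in their lists, these scores were above 37.4% and 3.17%, respectively. A second region of HCT116/Scrsh cells, 300 bp at 22008601 to 22008900, was centred in intron 1 and overlapped coding sequence of an annotated transcript. Its score was 53 (percentile 79.8), above 39.3% of the 300-bp regions of the list. No region was called there in HCT116/ABsh-1 cells, whose nearest region lay 200 bp away. H3K9me2 was called over coding exon 2, at 22005901 to 22006100, with a score of 26, below the median of 31 of its list.

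CDKN2C (ENSG00000123080.12, chromosome 1, 51426417 to 51440306, plus strand) had 100 bp of KDM3B in HCT116/Scrsh cells and no region in the other 3 lists. The region, at 51426101 to 51426200, had a score of 25 (percentile 51.5) and was centred at −267 bp from the start of the longest transcript, but 211 bp from the start of FAF1, the neighbouring gene. CDKN2D (ENSG00000129355.7, chromosome 19, 10677136 to 10679735, minus strand) was the only one of the 9 genes with KDM3B in HCT116/ABsh-1 cells and not in HCT116/Scrsh cells. Its region, at 10679801 to 10679900, was centred 195 bp upstream of the canonical TSS with a score of 9 (percentile 8.90). H3K9me2 covered 0 bp in HCT116/Scrsh cells and 300 bp in HCT116/ABsh-1 cells, at 10677701 to 10678000 in coding exon 2, with a score of 55 (percentile 69.2). After that at CCND2, this was the widest H3K9me2 region of HCT116/ABsh-1 cells at the 9 genes. Its centre was 1805 bp from the nearest start of CDKN2D, but 1143 bp from a start of KRI1, another gene.

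**Figure D4:**
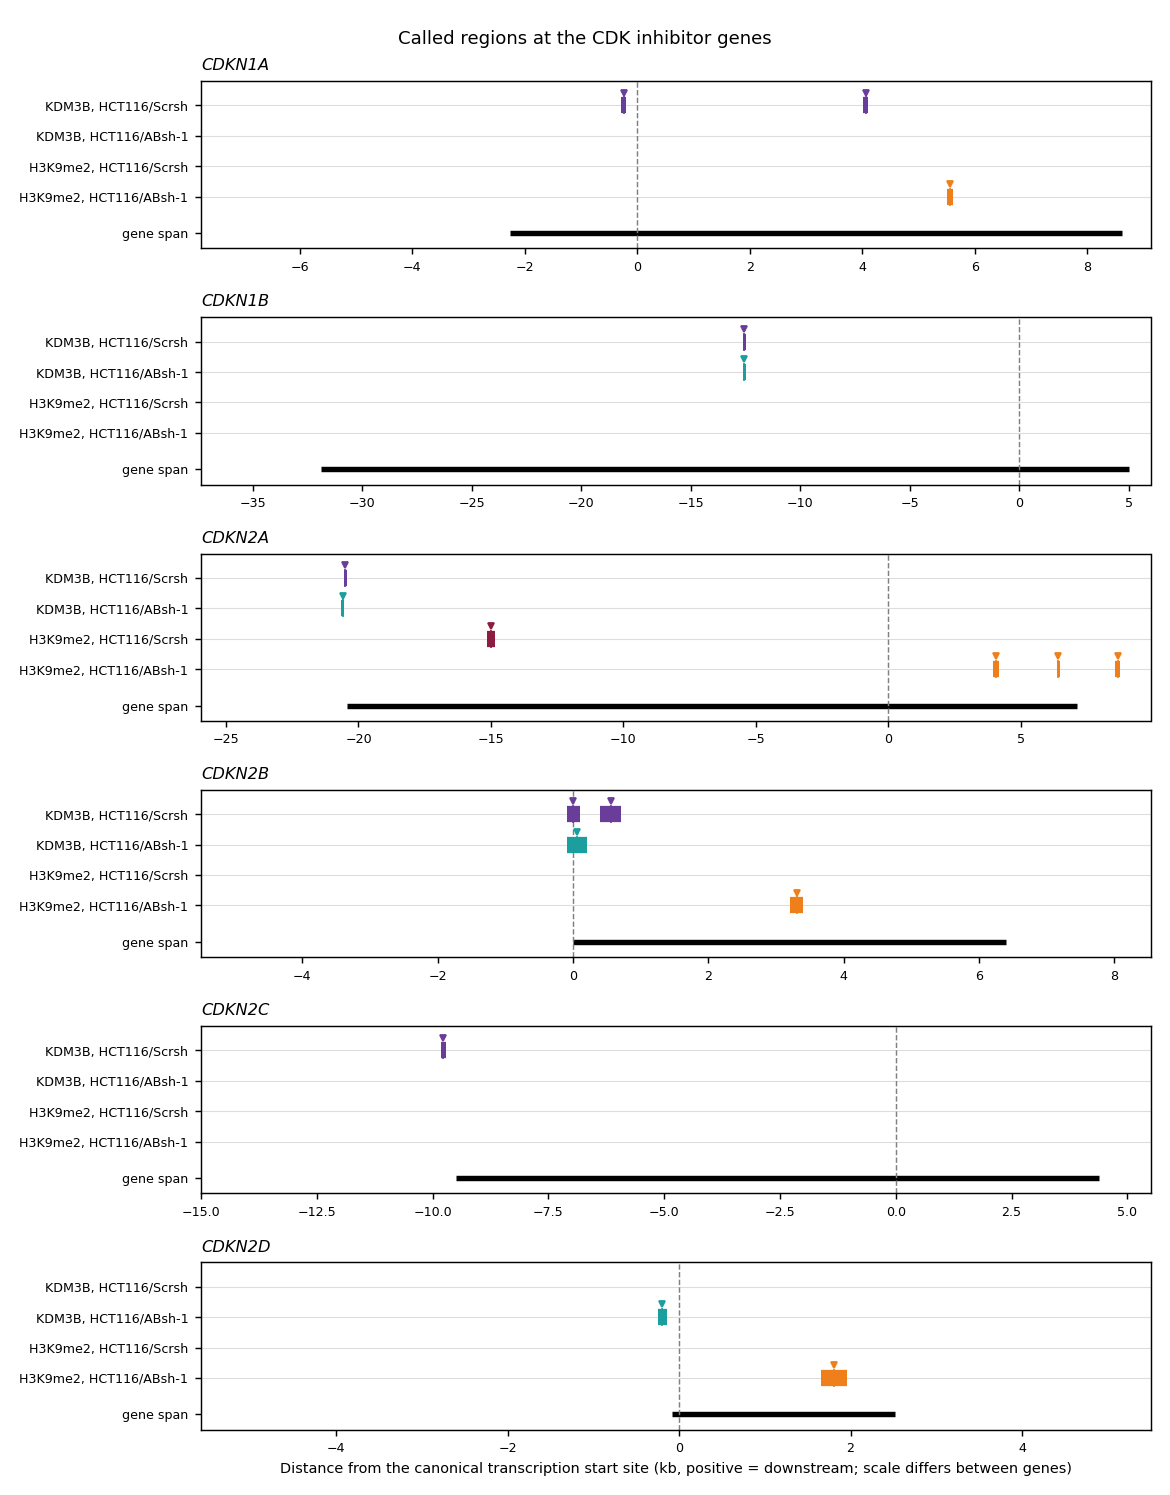
Regions of the 4 lists at the 6 CDK inhibitor genes, drawn as for the cyclin genes, by distance (kb) from the canonical TSS. CDKN1B has the same KDM3B window in both populations and no H3K9me2, CDKN2A is the only gene with an H3K9me2 region in HCT116/Scrsh cells, and CDKN2C has a region in 1 list only.

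Across the 9 genes, 5 KDM3B regions were shared by overlap, at CCND1, CCND2, CCND3, CDKN1B and CDKN2B. They were 5 of the 16 regions of HCT116/Scrsh cells and 5 of the 8 of HCT116/ABsh-1 cells, while over all protein-coding genes 24.5% and 53.5% of regions overlapped. For H3K9me2, neither the 1 region of HCT116/Scrsh cells at the 9 genes nor any of the 21 of HCT116/ABsh-1 cells overlapped the other population. At all protein-coding genes 42.3% of the HCT116/Scrsh regions and 3.90% of the HCT116/ABsh-1 regions did. A single region in HCT116/Scrsh cells and a low share in HCT116/ABsh-1 cells do not set the 9 genes apart. None of the KDM3B regions at these genes overlapped an H3K9me2 region of HCT116/ABsh-1 cells, and over all protein-coding genes such overlap was rare too, at 0.528% of the KDM3B regions of HCT116/Scrsh cells and 1.13% of those of HCT116/ABsh-1 cells. The gaps from the 16 KDM3B regions of HCT116/Scrsh cells to the nearest such H3K9me2 region ran from 1200 to 82400 bp with a median of 4300 bp, and 9 of the 16 were within 5 kb. Over all KDM3B regions of HCT116/Scrsh cells at protein-coding genes the median gap was 11000 bp and 37.3% were within 5 kb. Relative to TSSs, 8 of the 16 KDM3B regions of HCT116/Scrsh cells, 4 of the 8 of HCT116/ABsh-1 cells and 6 of the 21 H3K9me2 regions of HCT116/ABsh-1 cells lay within 1 kb of a start of their gene. Over all regions at protein-coding genes, counted to a start of any protein-coding gene, the shares were 45.3%, 46.2% and 27.4%. That measure is wider than the one for the 9 genes, and its shares were close to theirs.

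By presence or absence in the 4 lists, CCND1, CCND2, CCND3 and CDKN2B had one pattern, with KDM3B in both populations and H3K9me2 only in HCT116/ABsh-1 cells, which 9.88% of all protein-coding genes had. CDKN1A, with KDM3B only in HCT116/Scrsh cells and H3K9me2 only in HCT116/ABsh-1 cells, was like 9.82% of genes. CDKN2C, with KDM3B in HCT116/Scrsh cells alone, was like 8.93%, CDKN1B like 6.06%, CDKN2A like 4.23% and CDKN2D like 1.97%.

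The other genes of the G1/S step were taken from a list of 20 genes of CDKs, cyclins, retinoblastoma and E2F proteins and their regulators. KDM3B was called at 15 of the 20 in HCT116/Scrsh cells and at 5 of the 20 in HCT116/ABsh-1 cells. H3K9me2 was called at 4 of the 20 and 11 of the 20, respectively. Over all protein-coding genes the shares were 43.5% and 25.0% for KDM3B, and 17.8% and 56.4% for H3K9me2. Only KDM3B in HCT116/Scrsh cells stood well above its share of all genes. Whether it did so beyond chance was not tested. E2F4, a repressive E2F factor, had the pattern of the 3 cyclin genes and CDKN2B. CDK4, the partner of the D-type cyclins, CDKN1C, the third CIP/KIP gene, E2F2 and CKS1B had the pattern of CDKN1A. CDK2, CCNA2 (cyclin A2), RBL1 and RBL2, which encode relatives of the retinoblastoma protein, and E2F3 had that of CDKN2C. CDC25A, a phosphatase that activates CDKs, matched CDKN1B, TFDP1, a partner of E2F factors, matched CDKN2A, and CCNE2 (cyclin E2) matched CDKN2D. Likeness here means the same presence in 4 lists, each from 1 library.

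The regions at the 9 genes were rich in GC and CpG for the KDM3B lists. The comparison is with whole lists, which also hold regions away from genes. Of the 17638 KDM3B regions of HCT116/Scrsh cells, 11356 were at protein-coding genes by the same rule. In the 300 bases around each region's centre, the median GC content of the 16 KDM3B regions of HCT116/Scrsh cells was 63.7% against 52.3% over the whole list, and the median number of CpGs 14.5 against 6. In HCT116/ABsh-1 cells the 8 regions had a median GC content of 63.7% against 53.7%, and 29.5 CpGs against 7. For H3K9me2 in HCT116/ABsh-1 cells the 21 regions were close to their list, at 61.0% against 60.7% GC and 11 against 9 CpGs. The KDM3B regions differed among themselves, since CDKN1B (42.3%, 2 CpGs) and the CCND3 region at 41934901 (39.7%, 2 CpGs) were low, and the CCND1 region 4424 bp upstream of the TSS was highest (72.3%, 42 CpGs). The GC content of the gene windows themselves was lowest at CDKN2B, higher than in 24.4% of all protein-coding genes. It was highest at CCND1 (59.0%), higher than in 95.8% of them, with a median of 44.7% over all genes. CCND1 held 6 of the 16 KDM3B regions of HCT116/Scrsh cells.

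**Figure D5:**
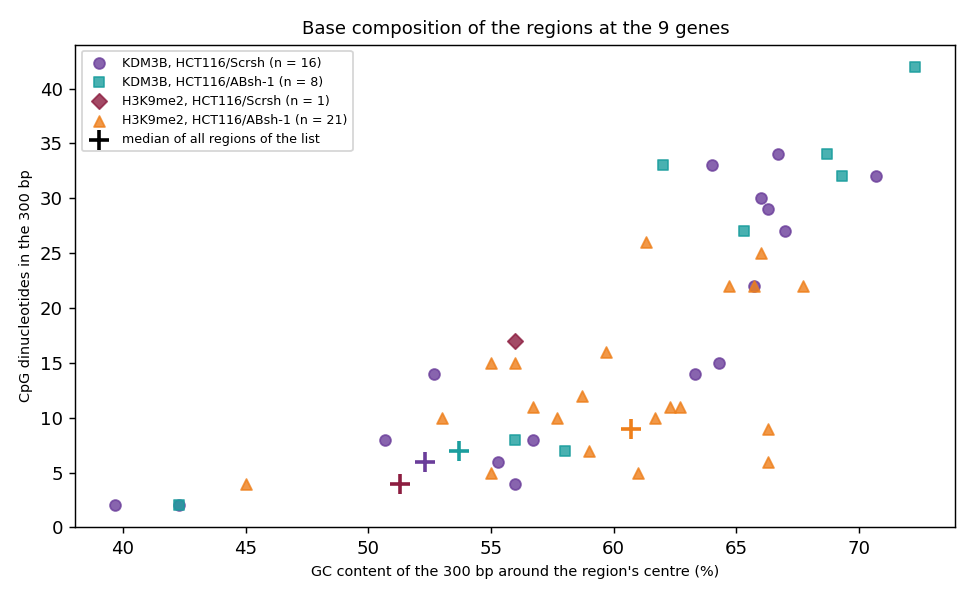
GC content (%) and number of CpG dinucleotides in the 300 bp around the centre of each region at the 9 genes, by list, with crosses at the medians of all regions of each list. Most KDM3B points have more CpGs than the crosses of their lists, and the H3K9me2 points of HCT116/ABsh-1 cells lie around theirs.

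Exact letter matches on either strand were counted in the same 300-base stretches for ATCAAAG (TCF/LEF), TGACTCA (AP-1), TTTGGCGC, TTTCGCGC and TTTCCCGC (E2F), CACGTG (E-box) and TGACGTCA (CREB), no motif of which contains another. In the KDM3B list of HCT116/Scrsh cells, ATCAAAG was found in 1 of the 16 stretches, that over exon 1 of CCND1 (whole list, 4.54%), TGACTCA in 1, at the CCND3 region at 41934901 (12.8%), and CACGTG in 1, at CDKN2C (6.37%). In the KDM3B list of HCT116/ABsh-1 cells, TTTCCCGC was found at CDKN2D (1.23%) and CACGTG at the upstream region of CCND1 (6.86%), each in 1 of the 8. CACGTG was in 4 of the 21 H3K9me2 stretches of HCT116/ABsh-1 cells (8.83%), 1 at CCND1, 1 at CCND2 and 2 at CDKN2A, and in that of HCT116/Scrsh cells at CDKN2A (5.93%). A match describes the letters only.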

How the data were processed

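KDM3B and H3K9me2 ChIP-seq and input libraries came from HCT116/Scrsh and HCT116/ABsh-1 cells, 1 library each. The authors mapped reads to hg19 with Bowtie, kept uniquely placed reads, 1 for each position, and called regions in 100-bp windows from the Poisson probability of the ChIP reads given the input. Their methods also require neighbouring windows, whereas the deposited lists hold single windows. Each deposited region has a whole-number score of unstated meaning, and only its order within each list was used. The depth is unknown, and the inputs were not analysed here.

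Regions were assigned to GENCODE release 44 genes in the hg19 version (flanks of 5 kb around every TSS joined with the gene body, overlap of at least 1 base), and sequences were read from hg19. Introns and exons were named by the centre of the region in the canonical transcript. The assignment was tested on simulated regions. No test between libraries was possible. The 9 genes, the G1/S list and the motifs were chosen with earlier results of these data known. The text names the 9 genes, G1/S genes with the same presence in all 4 lists as one of them, and genes their regions overlap. Overlapped genes that the annotation lists only by an identifier, without a symbol, are not named. FAF1, KRI1 and the antisense gene nearest to the CCND2 site were named after the values were seen. A region shared between the populations at CCND3 is not reported here in detail. Alternatives were other flanks, transcripts, minimum widths, score limits, equal list lengths, merging and overlap rules, and, chosen after seeing the data, canonical transcripts only and the background shares under settings other than the flanks. Python 3.11.15, numpy 2.4.6, pandas 2.3.3 and matplotlib 3.10.9 were used.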

Additional observations from a re-analysis of the deposited data

How the results depend on the processing

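Of 96 values recomputed for the main counts under the alternatives, 72 stayed within 1.5 times and 24 did not. With 5 kb flanks alone, the H3K9me2 regions of HCT116/ABsh-1 cells at the 9 genes fell from 21 to 13. With regions of 200 bp or more, KDM3B was called at 4 genes (6 regions) in HCT116/Scrsh cells and 3 genes (4 regions) in HCT116/ABsh-1 cells. The shares of all genes were 26.4% and 11.6%, and 2 regions were shared in each. H3K9me2 of HCT116/ABsh-1 cells had 8 regions at 5 genes (all genes, 45.5%). Among regions at or above the median score of their list there were 8 KDM3B regions at 6 genes in HCT116/Scrsh cells (all genes, 27.1%). In HCT116/ABsh-1 cells there were 5 KDM3B regions at 4 genes (all genes, 13.7%). There were also 6 H3K9me2 regions at 4 genes in HCT116/ABsh-1 cells, near the 42.7% of all genes. With equal list lengths, KDM3B of HCT116/Scrsh cells had 7 regions at 5 genes, fewer than the 8 at 7 genes of HCT116/ABsh-1 cells, and H3K9me2 of HCT116/ABsh-1 cells had 0 regions at 0 genes, so both differences between the populations turned. With canonical transcripts only, KDM3B was called at 4 genes in each population (all genes, 40.4% and 22.4%), with 5 regions in HCT116/ABsh-1 cells. H3K9me2 of HCT116/Scrsh cells then had 0 genes (all genes, 16.0%), 0 regions and 0 bases. Counting regions within 1 kb as shared gave 8 in place of 5 of the KDM3B regions of HCT116/Scrsh cells. No paired analysis was possible because each antibody and population had 1 library and no result came from a test. The cause of these changes was not tested. The unknown depth limits every absence of a region.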
